A study of Mus musculus with 8 samples.

Results

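The transcripts of 10 genes of iron handling were followed in mouse skin keratinocytes with and without Hmgb1. They were the 4 STEAP metalloreductases (Steap1, Steap2, Steap3 and Steap4), the transferrin receptor Tfrc, the iron importer Slc11a2, the iron exporter Slc40a1, the ferritin subunits Fth1 and Ftl1, and Ireb2, which encodes an iron-sensing RNA-binding protein. The genes were picked by symbol from 24421 symbols in the count files, and all 10 were found. They had been proposed with the contrast between knockout and control in view. Their differences between the groups are thus a description and support nothing further. No p-value is printed for any of them, and whether each passed the threshold of the fit across all genes is likewise a description.

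There were 4 control and 4 knockout libraries of total RNA from skin keratinocytes of CBA x C57Bl/6J mice, whose ages the labels do not give. All 8 carried InvEE, a transgene in which the involucrin promoter, active in the upper layers of the epidermis, drives constitutively active MEK1, a kinase of the MAP kinase cascade. All had floxed alleles of Hmgb1, a chromatin protein that is also released as an alarmin. Controls lacked K5 Cre. Knockouts carried it, and this Cre acts in basal keratinocytes and their descendants. Knockouts alone carried Cre, so an effect of Cre and the loss of Hmgb1 cannot be told apart. The labels number replicates without stating separate animals, so spread and p-values may be partly technical.

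Iron enters most cells bound to transferrin, which is taken up with its receptor into endosomes. There a metalloreductase of the STEAP family reduces ferric to ferrous iron, Slc11a2 carries it into the cytosol, ferritin stores it and Slc40a1 exports it. STEAP proteins also reduce copper, except Steap1, which lacks the domain that binds NADPH. Iron regulatory proteins, one of them the product of Ireb2, bind a hairpin in messenger RNAs called the iron-responsive element when iron is scarce. In a 5′ UTR such a hairpin lets them block translation, and in the 3′ UTR of Tfrc it lets them stabilise the messenger RNA.

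These hairpins are shown because they set the listed transcripts apart from the STEAP family, whose transcripts had no match. The search took GENCODE release M21 (GRCm38, the assembly of mm10) and asked for a C, 5 bases, a loop of CAGTGN whose last base was not G, and 5 bases able to pair with the first 5 (G-T pairs allowed) on the sense strand of UTRs. A variant form allowed 1 extra base in the second arm. It found 8 hairpins in 5 of the 10 genes. Each is printed 5′ to 3′ on the sense strand over 29 bases, with the loop in capitals.
Fth1, 5′ UTR: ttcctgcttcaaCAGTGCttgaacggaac
Ftl1, 5′ UTR: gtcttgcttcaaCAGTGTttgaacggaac
Slc40a1, 5′ UTR: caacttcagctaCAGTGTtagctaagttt
Tfrc, 3′ UTR, nearest the stop codon: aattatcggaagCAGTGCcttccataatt
Tfrc, 3′ UTR, next: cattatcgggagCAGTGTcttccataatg
Tfrc, 3′ UTR, next: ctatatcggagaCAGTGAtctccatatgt
Tfrc, 3′ UTR, last: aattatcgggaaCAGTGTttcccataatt
Slc11a2, 3′ UTR, with the extra base: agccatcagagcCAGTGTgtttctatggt

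The ferritin hairpins lie at chr19:9982732-9982760 on the plus strand for Fth1 and chr7:45459779-45459807 on the minus strand for Ftl1, and they share 26 of 29 bases. That of Slc40a1 is at chr1:45925465-45925493 on the minus strand. The 4 of Tfrc lie between chr16:32631219-32631247 and chr16:32631710-32631738 on the plus strand, and that of Slc11a2 is at chr15:100395153-100395181 on the minus strand. Among 21877 protein-coding genes, a fully paired match was found in the 5′ UTR of 0.101% and in the 3′ UTR of 0.457%, and the form with an extra base in the 3′ UTR of 0.535%. A match describes the letters and does not show that a protein binds there.

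The libraries held 30506676 to 34229030 counts on genes. Hmgb1 was at 565 to 615 CPM (counts per 1e6, on library sizes scaled by TMM) in controls and 113 to 126 CPM in knockouts, as the labels have it. Keratinocyte markers were abundant, with Krt5 at 23784 ± 2050 CPM in control and 24204 ± 1984 CPM in knockout libraries (mean ± SD, 4 libraries each, as for all such pairs of values). Of 8 tested keratinocyte markers 2, Krt10 and Cdh1, were higher in knockouts at an edgeR adjusted p under 0.05, beside 4.33% of all genes tested. Krt5, Krt14, Krt1, Trp63, Dsg3 and Col17a1 did not pass. The globin genes of the erythroid list had 0 counts in every library, and that list summed to 0.642 to 0.949 CPM in controls, and 0.485 to 0.631 CPM in knockout libraries. Macrophage markers summed to 2.43 to 11.5 CPM in controls, and 2.78 to 17.1 CPM in knockout libraries. Fibroblast markers summed to 5.97 to 12.0 CPM in controls, and 3.41 to 23.98 CPM in knockout libraries. Of 4 tested fibroblast markers Dcn alone passed the same threshold, at 0.663 ± 0.228 CPM in control and 1.92 ± 0.615 CPM in knockout libraries. Col1a1, Col1a2 and Col3a1 did not pass, with log2 fold changes of 0.24, -0.44 and 0.10. Control replicates 2 and 3 and knockout replicate 1 held Y-linked transcripts. In bulk RNA, fewer cells of a type and less RNA per cell cannot be told apart.

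Within the STEAP family, Steap2, Steap3 and Steap4 were each lower in every knockout library than in any control library, and Steap1 was barely present. The largest difference was that of Steap2 (4.31-fold), followed by Steap4 (2.43-fold) and Steap3 (1.44-fold). Over all genes tested 9.00% had every knockout library below every control. For the 6 genes of uptake, export, storage and sensing the control and knockout libraries overlapped, as they did for most genes, since 17.0% of all genes tested had groups without overlap in either direction. Nothing particular to these 6 is read from it.

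Steap2 (chromosome 5, 5664829 to 5694578, GRCm38) encodes a ferric and cupric reductase. Its level was 2.99, 4.09, 3.11 and 3.33 CPM in control replicates 1 to 4 and 0.787, 0.818, 0.679 and 0.852 CPM in knockout replicates 1 to 4. The lowest control library was thus well above the highest knockout library, and the knockouts lay close together. The counts behind these values were 101 to 128 in controls and 21 to 27 in knockouts. Means were 3.38 ± 0.494 and 0.784 ± 0.0750 CPM (SD, n = 4 each), and the log2 fold change was -2.10 (SE 0.21). In knockouts 23.2% of the control mean was left, and its log2 fold change stood at percentile 0.530 of all genes tested, counted from the most negative.

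Steap4 (chromosome 5, 7960457 to 7982213), a reductase that is known to be induced by inflammatory cytokines in other tissues, was at 14.7, 21.0, 23.3 and 11.6 CPM in control replicates 1 to 4. Knockout values were 5.83, 5.60, 9.76 and 7.86 CPM in the same order. Controls varied about 2-fold among themselves, and the highest knockout library, replicate 3, lay just under the lowest control library, replicate 4. The log2 fold change was -1.28 (SE 0.25), with means of 17.6 ± 5.44 and 7.26 ± 1.95 CPM (SD, n = 4 each). The higher control libraries, replicates 2 and 3, were those with Y-linked transcripts (mean 22.1 CPM against 13.1 CPM in the other controls), whereas the knockout library with such transcripts, at 5.83 CPM, was below the mean of the other knockouts, 7.74 CPM. With a term for Y-linked transcripts the log2 fold change was -1.15 (SE 0.27).

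Steap3 (chromosome 1, 120190757 to 120272705) is the main ferric reductase of the endosome in red cell precursors. Control values were 25.3, 27.8, 18.6 and 19.4 CPM in replicates 1 to 4, and knockout values were 15.1, 14.5, 15.5 and 17.99 CPM. The groups were parted by a narrow gap, between knockout replicate 4 and control replicate 3. Means were 22.8 ± 4.49 and 15.8 ± 1.53 CPM (SD, n = 4 each), and the log2 fold change was -0.53 (SE 0.15). Steap1 (chromosome 5, 5736317 to 5749326) had 6 counts over the controls and 2 over the knockouts, with at most 3 in a library, and no fold is given at that depth.

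**Figure D1:**
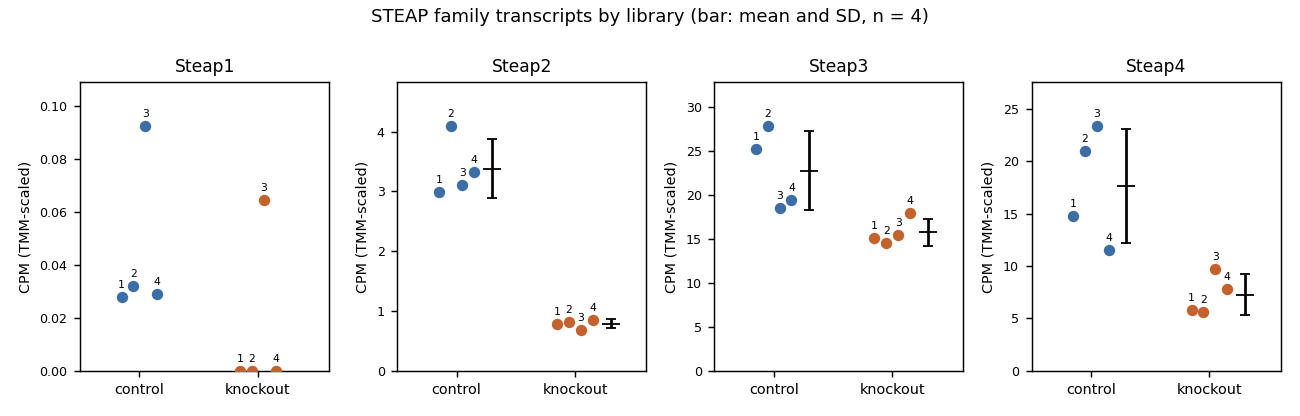
Levels of the STEAP transcripts in CPM (vertical axes, linear, from 0) in the 4 control and 4 knockout libraries, each dot a library labelled with its replicate number, with mean and SD beside the dots except for Steap1, which had at most 3 counts in a library. For Steap2, Steap3 and Steap4 all knockout dots lie below all control dots, by the widest margin for Steap2 (0.679 to 0.852 against 2.99 to 4.09 CPM).

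The stretch before the start of Steap4 is shown because it holds a STAT-type motif, TTCNNNGAA: STAT factors act downstream of cytokines, and Steap4 is known as a cytokine-induced gene. It comes from RefSeq (GRCm38.p6), chr5:7960222-7960456 on the plus strand, and runs 235 bases to the base before the annotated gene, with the motif in capitals.
Steap4: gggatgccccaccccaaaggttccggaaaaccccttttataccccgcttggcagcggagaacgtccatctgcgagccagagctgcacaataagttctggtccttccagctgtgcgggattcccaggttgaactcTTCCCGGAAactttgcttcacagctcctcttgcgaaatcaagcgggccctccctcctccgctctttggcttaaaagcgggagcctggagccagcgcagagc

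The motif begins 116 bases before the RefSeq start site of Steap4. At Steap2 a match, TTCGTGGAA, begins 135 bases before 1 of its listed start sites, within the annotated 5′ UTR of a longer transcript. Of 32851 promoter windows of 300 bases, 8.30% hold this motif, which reads the same on both strands. A gene with several listed start sites, such as Steap2, has several windows and so more room for a match. A match describes the letters, and whether STAT factors bind there or bear on these levels was not tested. The table held 8 of the 10 genes, without Slc11a2 and Slc40a1, and the motif was not among the letters of the windows of Steap1, Steap3, Tfrc, Fth1, Ftl1 or Ireb2. The antioxidant response element TGACNNNGC, searched on both strands, was found at Steap2 alone (12.4% of all windows). The hypoxia response elements ACGTG and GCGTG, searched likewise, were found at Steap2 and Tfrc for the first (19.6% of windows) and at Steap1, Steap2, Steap3, Tfrc, Fth1 and Ftl1 for the second (32.4%). The loop letters CAGTGN were searched on the sense strand only in the short part of each window after the start. Of the 300 bases of a window, 250 lie before it. In that part they were found at Steap3 alone, with 7.08% of windows holding them. It does not reach the 5′ UTR hairpins of Fth1 and Ftl1 printed above, so this search does not speak to those.

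Among the genes of uptake and export, Tfrc (chromosome 16, 32608920 to 32632794) was at 91.4, 76.6, 102 and 72.9 CPM in control replicates 1 to 4 and at 82.6, 81.7, 57.8 and 68.9 CPM in knockout replicates 1 to 4. Knockout replicate 3 was the lowest of the 8 and control replicate 3 the highest, but the other libraries of the groups interleaved. Its log2 fold change was -0.24 (SE 0.14), with means of 85.7 ± 13.5 and 72.7 ± 11.8 CPM (SD, n = 4 each). Slc11a2 (chromosome 15, 100387898 to 100425072), which moves ferrous iron out of endosomes, ranged from 33.6 to 39.9 CPM in controls, and from 32.1 to 46.1 CPM in knockout libraries. Knockout replicate 2 was its highest library. Its log2 fold change was 0.05 (SE 0.12), and the sign turned with library totals in place of TMM (-0.05) and without knockout replicate 2 (-0.07). The annotated gene Gm5475 overlaps it on the opposite strand, and the sources used here do not say whether counting used strand.

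Slc40a1 (chromosome 1, 45908068 to 45926523), ferroportin, was low, as Steap2 was. Its level was 3.68, 2.62, 2.62 and 2.63 CPM in control replicates 1 to 4 and 1.68, 3.40, 0.808 and 1.77 CPM in knockout replicates 1 to 4. Of the knockouts, replicates 1, 3 and 4 were below every control, and replicate 2 was above all controls but replicate 1. The counts were 82 to 132 in controls and 25 to 104 in knockouts, and the log2 fold change was -0.59 (SE 0.36). It was -1.02 without knockout replicate 2. That library also had the highest summed macrophage markers, 17.1 CPM against 2.78 to 8.37 CPM in the other knockouts, and macrophages express Slc40a1 strongly. In controls the order was another: replicate 3 had the highest macrophage sum (11.5 CPM), with Slc40a1 level with replicates 2 and 4. Replicate 1, with the highest Slc40a1, had a macrophage sum of 4.72 CPM. The part of such cells in the level of Slc40a1 was not tested.

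For storage, Fth1 (chromosome 19, 9980598 to 9985098), the ferritin heavy chain that oxidises iron, was at 842, 843, 826 and 916 CPM in control replicates 1 to 4. In knockout replicates 1 to 4 it was at 979, 824, 998 and 749 CPM, so that the knockouts spanned a wider range than the controls on both sides. The log2 fold change was 0.05 (SE 0.11), and its sign turned with library totals in place of TMM (-0.06) and without knockout replicate 3 (-0.01). Ftl1 (chromosome 7, 45457944 to 45459884), the light chain, ranged from 165 to 204 CPM in controls, and from 150 to 211 CPM in knockout libraries, with a log2 fold change of -0.12 (SE 0.12). Ferritin counts are uncertain, since GENCODE lists 14 other loci named Fth or Ftl, among them processed copies. Multiply aligned reads were listed as 0 in every library, and how such reads were handled is not given in the sources used here. Gm10252 overlaps Ftl1 on the opposite strand and Gm22133 on the same strand.

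Ireb2 (chromosome 9, 54863789 to 54912530) was at 59.5, 49.3, 59.8 and 53.9 CPM in control replicates 1 to 4 and 48.3, 45.7, 43.2 and 49.3 CPM in knockout replicates 1 to 4. Control replicate 2 lay just under the highest knockout library, replicate 4, and the other controls lay above all knockouts. The log2 fold change was -0.25 (SE 0.09), with means of 55.6 ± 5.02 and 46.7 ± 2.74 CPM (SD, n = 4 each).

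**Figure D2:**
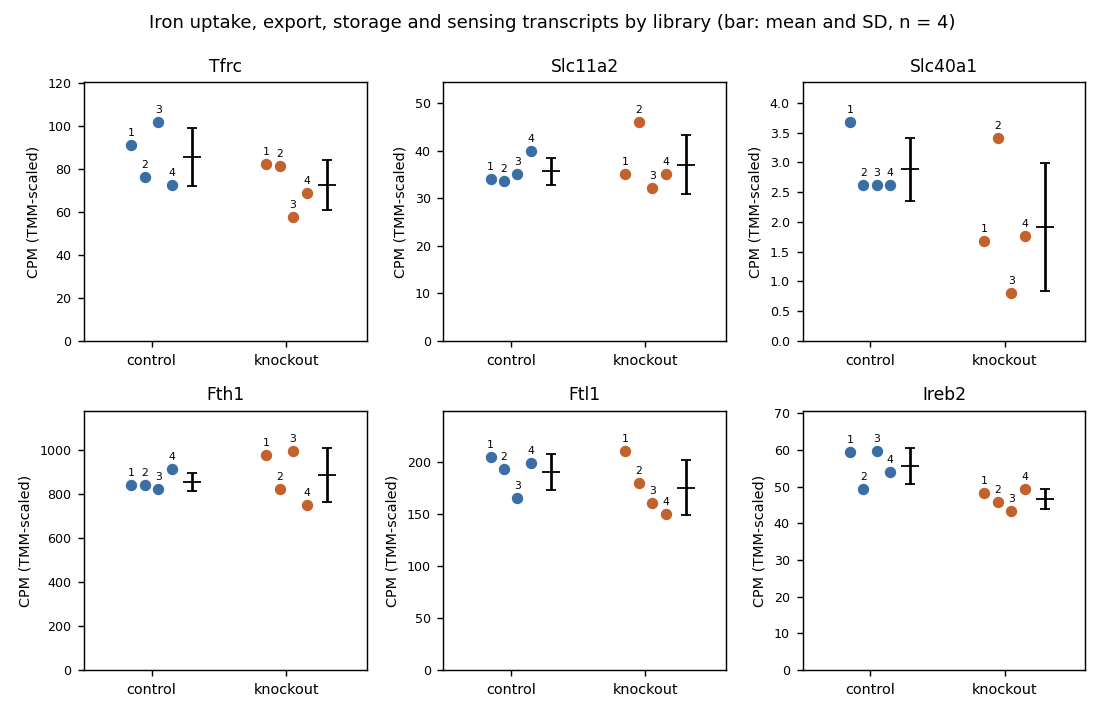
Levels of the transcripts of iron uptake, export, storage and sensing in CPM (vertical axes, linear, from 0) in the 4 control and 4 knockout libraries, each dot a library labelled with its replicate number, with mean and SD beside the dots. The groups overlap in all 6 panels, and in Slc40a1 knockout replicate 2 (3.40 CPM) lies among the controls.

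The balance of the ferritin transcripts was read from counts within a library, which no scaling of libraries alters. It is not corrected for length (3469 annotated exon bases for Fth1, 1340 for Ftl1) and does not give the balance of the proteins. There were 4.13, 4.36, 5.01 and 4.61 Fth1 counts per Ftl1 count in control replicates 1 to 4 and 4.65, 4.59, 6.21 and 4.99 in knockout replicates 1 to 4. Knockout replicate 3 stood highest and the other knockouts fell within the control range. The means were 4.53 ± 0.377 and 5.11 ± 0.755 (SD, n = 4 each). Tfrc counts per 100 Fth1 counts, which set the uptake transcript against the storage transcript, averaged 10.1 ± 1.94 in control and 8.33 ± 1.80 in knockout libraries (SD, n = 4 each). They ranged from 7.96 to 12.4 in controls and from 5.78, in knockout replicate 3, to 9.92 in knockouts.

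**Figure D3:**
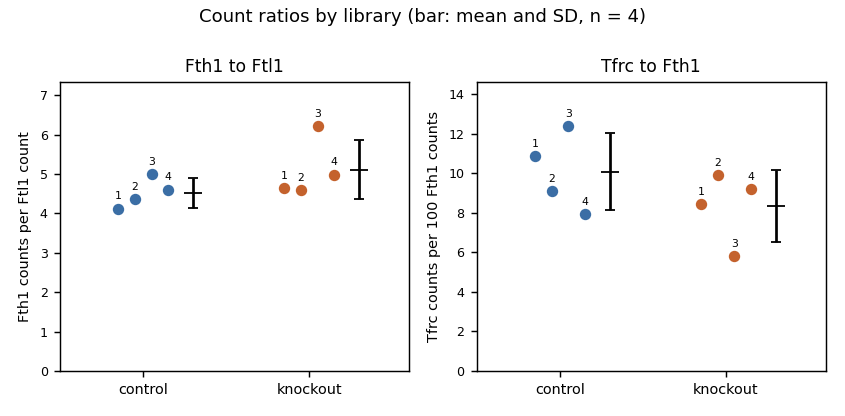
Fth1 counts per Ftl1 count (left) and Tfrc counts per 100 Fth1 counts (right) in each library, with linear axes from 0, replicate numbers beside the dots and mean and SD at the side. The groups overlap in both panels, and knockout replicate 3 is the highest on the left (6.21) and the lowest on the right (5.78).

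Levels were compared between genes per kilobase of annotated exon (RPKM, with the union of GENCODE exons, which retained-intron models lengthen). In controls Fth1 was the highest at 247 ± 11.6 RPKM, then Ftl1 at 142 ± 13.1 and Tfrc at 13.9 ± 2.19 RPKM (SD, n = 4 each). Ireb2 (5.87 ± 0.530 RPKM), Slc11a2 (5.62 ± 0.449 RPKM) and Steap4 (5.59 ± 1.72 RPKM) differed by less than their spread, and Steap3 followed at 3.99 ± 0.786 RPKM. At the low end Slc40a1 (0.321 ± 0.0591 RPKM) and Steap2 (0.278 ± 0.0407 RPKM) also differed by less than their spread, and Steap1 was last. In knockouts the level of Steap4 was 2.30 ± 0.618 RPKM and that of Steap3 2.76 ± 0.267 RPKM, again within their spread. Ireb2 and Slc11a2 stood above both STEAP genes there, at 4.92 ± 0.289 and 5.83 ± 0.971 RPKM.

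Of the 10 genes, 9 passed the filter on low counts and Steap1 did not. In the edgeR fit across 13016 genes, 3 of these 9 (Steap2, Steap3 and Steap4) were lower at an adjusted p under 0.05, beside 4.54% of all genes tested (8.87% in either direction). The libraries did not overlap for the same 3, beside 9.00% of all genes with knockouts below controls (17.0% in either direction). Since the genes were proposed with this contrast in view, these counts are a description and nothing is read from them. The median log2 fold change of the 9 was -0.25, beside -0.02 over all genes tested. Steap2 and Steap4 kept their place past the threshold in all 15 alternative fits. These fits reuse the same libraries, so they show dependence on processing only and are no further support. Steap3 was past it in 3 of 15, and of 8 fits with a library removed, that without control replicate 3 alone kept it. Ireb2 came past it in 1 of 15, with library totals in place of TMM, a change that moved the median log2 fold change of all genes by -0.11.

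**Figure D4:**
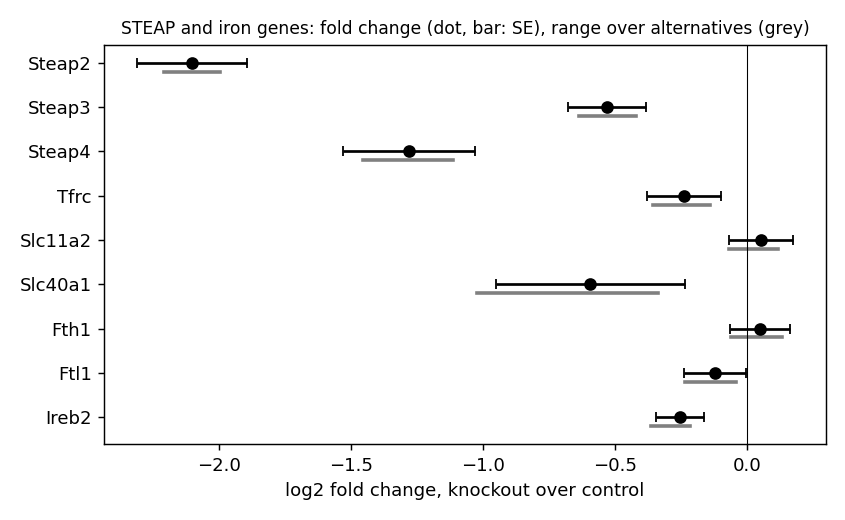
Log2 fold change of knockout over control (horizontal axis) for the 9 genes that passed the filter on low counts, with dots for the edgeR estimate, black bars for its standard error and grey bars for the range over 15 alternative fits. Steap2 (-2.10) and Steap4 (-1.28) lie farthest from 0, and the grey bars of Slc11a2 and Fth1 cross 0.

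The transcripts whose pattern over the 8 libraries was most like that of Steap3, the STEAP gene with the highest mean CPM, were Jade2, Klhl8 and Msrb3. The measure was the root mean square difference of log2 CPM, each gene centred on its own mean, which was 0.10 for Jade2 and 0.11 for Klhl8 and for Msrb3, beside a median of 0.36 over 10006 genes of at least 5 CPM. For Tfrc they were Serinc5 (0.08), Tmem131 (0.09) and Pik3ca (0.10), beside a median of 0.30. All points of this measure come from the same 8 libraries, and it carries no test.

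The other genes of the pathway were taken from 6 lists of 94 symbols, of which 91 were in the files and 82 were tested. In edgeR's quasi-likelihood test 4 of these 82 fell in the knockout, 1 rose and 77 did not pass, beside 4.54% of all genes lower and 4.33% higher. Their median log2 fold change was -0.07, against -0.02 over all genes tested. The 4 that fell were Neo1, Abcg2, Slc22a17 and Cpox, and Slc31a2 rose. These lists too were chosen with earlier results of these data known, so their calls and p-values are a description. Alternative fits of these genes reuse the same libraries and are no further support.

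Of 7 tested genes of iron export, its oxidases and the hepcidin axis, Neo1 fell and 6 did not pass. Neo1 encodes neogenin, a receptor that in the liver takes part in hepcidin control and that has many other ligands. Its level was 94.9 ± 13.8 CPM in control and 57.6 ± 9.12 CPM in knockout libraries (SD, n = 4 each, log2 -0.72, SE 0.14, edgeR adjusted p = 0.0117), and the call held in all 15 alternative fits. The multicopper oxidase Heph, which works with ferroportin, was at 51.3 ± 3.74 and 47.1 ± 4.73 CPM. Of 13 tested genes of uptake and endosomal release, Slc22a17, a receptor for the siderophore-binding lipocalin, fell from 14.7 ± 3.12 to 9.67 ± 1.38 CPM (SD, n = 4 each, log2 -0.61, edgeR adjusted p = 0.0463). That call held in 7 of 15 alternative fits. Among the 8 with a library removed it held in 2, those without control replicate 4 and without knockout replicate 3. Its ligand Lcn2 was at 0.987 ± 0.591 and 0.508 ± 0.187 CPM.

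Of 17 tested genes of haem synthesis, export and breakdown, 2 fell and 15 did not pass. Abcg2, a transporter that exports porphyrins and many drugs, fell from 37.2 ± 11.3 to 22.1 ± 2.42 CPM (SD, n = 4 each, log2 -0.75, edgeR adjusted p = 0.0371). Cpox, an enzyme of haem synthesis, fell from 139 ± 9.83 to 111 ± 7.93 CPM (log2 -0.31, edgeR adjusted p = 0.0483). With a library removed, the call of Abcg2 held in 2 of 8 fits, those without control replicate 1 and without control replicate 3, and that of Cpox in 0 of 8. Hmox1, which breaks down haem, was at 4.39 ± 0.890 and 5.85 ± 2.38 CPM.

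Of 10 tested copper genes Slc31a2 rose and 9 did not pass. Slc31a2 encodes a copper transporter of endosomes and lysosomes and stood at 53.8 ± 5.38 CPM in control and 78.6 ± 3.78 CPM in knockout libraries (SD, n = 4 each, log2 0.55, SE 0.09, edgeR adjusted p = 0.00687), a call held in all 15 alternative fits. The importer Slc31a1 was at 66.0 ± 2.98 and 79.0 ± 6.00 CPM, with an edgeR adjusted p of 0.0742. The metallothioneins Mt1 and Mt2, which bind copper and zinc, were at 244 ± 45.1 and 607 ± 139 CPM in control libraries, against 305 ± 81.0 and 759 ± 208 CPM in knockout libraries. Log2 fold changes were positive for 9 of the 10 copper genes, with a median of 0.16, beside 6100 of 13016 over all genes. In the list of mitochondrial iron and iron-sulphur clusters, 17 of 24 were negative. These tallies carry no test, and library totals in place of TMM move the median of all genes by -0.11.

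Of 11 tested genes of iron sensing, iron chaperones and ferritin turnover 0 were called by edgeR, by DESeq2 or by limma-voom, and an unadjusted p under 0.05 was found for 0, beside 3412 of all 13016 genes tested. The iron chaperones Pcbp1 and Pcbp2 were at 303 ± 32.8 and 347 ± 22.3 CPM in control libraries, against 306 ± 8.42 and 350 ± 26.7 CPM in knockout libraries. Aco1, the other iron regulatory protein, was at 36.2 ± 2.43 and 33.0 ± 2.35 CPM, and Ncoa4, which delivers ferritin to the lysosome, at 106 ± 6.71 and 96.5 ± 5.27 CPM. Of 24 tested genes of mitochondrial iron and iron-sulphur clusters 0 were called by any of these tools, and an unadjusted p under 0.05 was found for 2, beside the same 3412 of 13016. Hspa9 was at 347 ± 31.3 and 322 ± 44.4 CPM and Mms19 at 57.7 ± 4.71 and 56.5 ± 1.83 CPM. Heph, Lcn2, Hmox1, Slc31a1, Mt1, Mt2, Aco1 and Ncoa4 are given outside the naming rule and were chosen after their values were seen.

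**Figure D5:**
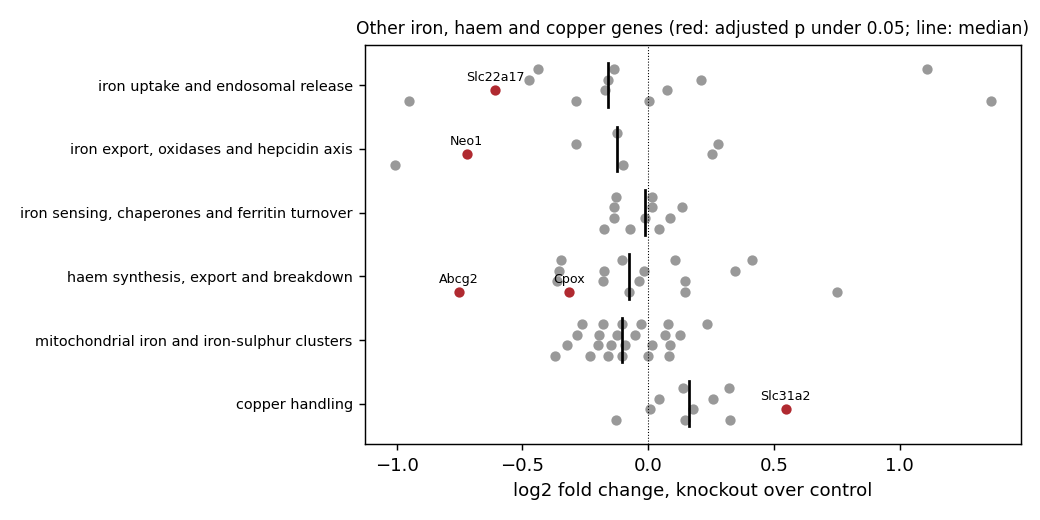
Log2 fold change of knockout over control (horizontal axis) for the 82 tested genes of 6 lists of iron, haem and copper handling (rows), each dot a gene, red where the edgeR adjusted p was under 0.05, with a black line at the median of each list. The 5 red dots are Slc22a17, Neo1, Abcg2 and Cpox to the left of 0 and Slc31a2 to the right, and the median of the copper list (0.16) is the only positive one.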

How the data were processed

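RNA of skin keratinocytes was measured in 8 libraries, 4 control and 4 knockout. The authors deposited raw counts per gene symbol, 1 file per library, with no normalization. The submitters' processing notes list mm10 and the tools Trimmomatic 0.35, FastQC 0.11.4, SAMtools 0.1.18 and TopHat2 2.1.0. Which program counted reads, on which annotation and with what strand setting is not given in the sources used here. Lines that name no gene were left out: reads outside genes made up 15.7 to 21.7% of all counted reads, ambiguous ones 0.918 to 1.11%, and the line for multiply aligned reads was 0.

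After edgeR's filterByExpr 13016 genes were left. Libraries were scaled by TMM, and genotype was the single term of a robust quasi-likelihood fit in edgeR. Benjamini-Hochberg adjustment ran over all genes tested, with a threshold of 0.05. The SE is the log2 fold change divided by the root of the test's F. Versions: DESeq2 1.42.0, edgeR 4.0.16, R 4.3.3, limma 3.58.1. Log2 CPM used a prior count of 2. The scripts were tested on simulated data, with 50 genes changed at each fold. There edgeR recovered 32% of 1.5-fold, 82% of 2-fold, 88% of 3-fold and 86% of 4-fold changes. A gene that did not pass may thus still differ, by a small fold or by a larger one. Unchanged genes made up 6.49% of the edgeR calls, 16.7% of the DESeq2 calls and 7.19% of the limma-voom calls.

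The genes and lists were chosen with earlier results of these data known. The rule named all 10 genes, Hmgb1, from each list up to 4 called genes or the 2 with the highest mean, and the 3 nearest in pattern to Steap3 and Tfrc. Flvcr1, Flvcr2 and the symbol Hjv were not analysed here, and no protein sequence was used. Markers of melanocytes, Langerhans cells, T cells, neutrophils and endothelium were also summed. Neutrophil markers were at most 0.107 CPM and endothelial markers at most 2.49 CPM. Melanocyte markers were at 5.81 to 6.61 CPM in controls and 6.08 to 7.50 CPM in knockouts, and Langerhans cell markers at 18.5 to 59.5 and 18.1 to 51.1 CPM. T cell markers were at 173 to 243 and 239 to 337 CPM, nearly all of it Thy1. Alternatives were DESeq2, limma-voom, RLE scaling, library totals only, no filter, the replicate number as a block, a term for Y-linked transcripts, and each library left out in turn.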

Additional observations from a re-analysis of the deposited data

Results flagged for a closer look

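In 42 groups of 4 libraries (the 10 genes, the named list genes and the ratios), 4 had a library far from the other 3, and chance gives about 1 in 20. Slc40a1 was at 3.68 CPM in control replicate 1 and at 2.62 to 2.63 CPM in the other controls. Cpox was at 123 CPM in knockout replicate 4 and at 106 to 108 CPM in the other knockouts. Steap1 was at 0.0924 CPM in control replicate 3, which is 3 counts, and at 0.0646 CPM in knockout replicate 3, which is 2 counts, against at most 1 count in the other libraries.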

How the results depend on the processing

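Over all genes, 563 were higher and 591 lower. The counts were 1093 and 917 with DESeq2, 371 and 997 with library totals only, and 375 and 348 with the replicate block. Leaving out 1 library gave 200 to 678 higher and 262 to 569 lower. The lowest counts were those without knockout replicate 2 (200 and 262) and without control replicate 2 (247 and 303). Same-numbered libraries did not deviate together (correlations of -0.23 to -0.05), so the numbers were not taken to pair them. Knockout replicate 4 is numbered by its sample label, while its deposited file carries another number, and the correlation for that number and the block rest on the label. With the replicate block Steap3 was no longer past the threshold and 1 of the other iron, haem and copper genes was lower, against 4 without it. Genes of those lists called higher, 1 as reported, were 3 with DESeq2 and 2 with RLE scaling. Those called lower were 1 to 3 when 1 library was left out, with 1 without control replicate 2 or without knockout replicate 1, 2 or 4. All 135 recomputed log2 fold changes of the 9 tested genes stayed within 1 SD of the libraries of a group. Removing 1 library can shift a group mean by only a fraction of that SD, so this says little for those fits. For the ferritin and Tfrc ratios the mean cannot leave 1 SD when a library is left out, so nothing is read from that check. The causes were not tested. Depth limits Steap1, at 3 counts or fewer in every library.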
